A study of Mus musculus with 35 samples.

Results

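The acrosome and sperm-egg fusion genes described here are 10 genes fixed by symbol: Acr, Zpbp, Zpbp2, Spata16, Spaca1, Acrv1, Spaca3, Spaca4, Izumo1 and Spam1. They are 10 of the 21579 gene symbols that have a probe set of their own on at least 1 of the array types used. All 10 symbols were present on both array types, with 10 probe sets at postnatal day 15 and 14 at day 25, where Spaca3, Spata16, Zpbp and Zpbp2 each have a second one. At day 15, 8 of the 10 passed the filter on low values and were tested among 16710 genes. Acrv1 and Spam1 did not pass there. At day 25 all 10 were tested, among 16305 genes.

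Total RNA of whole testis from male C57BL6 mice was measured on Affymetrix arrays, with a different array type at each age, so that differences were tested only within an age. Mice were wild type (Akt1+/+), heterozygous (Akt1+/-) or homozygous mutant (Akt1-/-) for Akt1, the gene of a kinase of insulin and growth factor signalling, and were either unexposed or exposed to PTU (propylthiouracil), which blocks thyroid hormone synthesis. Each of the 6 groups had 3 arrays at day 15 and 3 at day 25, except the exposed homozygous group of day 25, which had 2 because the submitters left 1 array out for its quality. The design text gives each array its own mouse, and the p-values below measure the spread between arrays whatever their source. The dose and days of PTU, litters, and the part of Akt1 that was removed are not given in the sources used here, nor is it stated whether the mutation is limited to a cell type. The brightest Akt1 probe set lay between 9.04 and 9.40 (log2 intensity) in unexposed homozygous testis and between 9.34 and 9.71 in unexposed wild type testis at day 15 (difference -0.28 ± 0.22, adjusted p = 0.35), and at day 25 the difference was -0.12 ± 0.08 (adjusted p = 0.383). Without knowledge of the deleted part this probe set does not check the genotype labels.

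The acrosome is a flat vesicle over the nucleus of the spermatid and sperm head that is built from Golgi membranes. It holds proteases and binding proteins that are released when sperm meet the coat of the egg, the zona pellucida, and release also brings fusion proteins to the sperm surface. Many of its genes are first transcribed in pachytene spermatocytes, the meiotic cells that precede spermatids, and others mainly in round spermatids, so their RNA appears in the testis in steps as the first wave of spermatogenesis proceeds.

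The stretches of 250 bases before the start of 9 of the 10 genes matched by symbol in RefSeq (build GRCm38.p6). Those of 5 genes are shown because they stand for genes that behaved differently at the 2 ages: Zpbp2 and Spata16 varied widely at day 15, Spaca1 less so, and Izumo1 and Acrv1 varied at day 25 but hardly at day 15. At day 15 Izumo1 lay around the filter level and Acrv1 below it. Capitals mark, on either strand, the cAMP response element (CRE) TGACGTCA, its core TGACG, and the repeat ACACAC. The search for the repeat was added after the sequences had been read.
Zpbp2 (chr11:98550847-98551096, plus strand): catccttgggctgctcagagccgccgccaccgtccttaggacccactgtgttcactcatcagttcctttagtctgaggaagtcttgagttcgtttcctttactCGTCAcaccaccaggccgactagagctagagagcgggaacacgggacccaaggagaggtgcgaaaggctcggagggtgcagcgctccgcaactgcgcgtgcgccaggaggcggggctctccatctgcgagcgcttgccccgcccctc
Spata16 (chr3:26637381-26637630, plus strand): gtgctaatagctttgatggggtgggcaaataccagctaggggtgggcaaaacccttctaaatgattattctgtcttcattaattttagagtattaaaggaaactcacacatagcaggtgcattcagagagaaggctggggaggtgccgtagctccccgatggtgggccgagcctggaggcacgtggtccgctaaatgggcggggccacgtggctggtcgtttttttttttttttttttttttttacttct
Spaca1 (chr4:34050066-34050315, minus strand): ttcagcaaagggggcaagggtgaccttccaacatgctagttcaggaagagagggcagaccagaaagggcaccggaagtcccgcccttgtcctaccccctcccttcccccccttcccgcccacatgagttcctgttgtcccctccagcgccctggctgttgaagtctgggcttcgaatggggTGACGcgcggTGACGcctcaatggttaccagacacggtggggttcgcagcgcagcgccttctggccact
Izumo1 (chr7:45621561-45621810, plus strand): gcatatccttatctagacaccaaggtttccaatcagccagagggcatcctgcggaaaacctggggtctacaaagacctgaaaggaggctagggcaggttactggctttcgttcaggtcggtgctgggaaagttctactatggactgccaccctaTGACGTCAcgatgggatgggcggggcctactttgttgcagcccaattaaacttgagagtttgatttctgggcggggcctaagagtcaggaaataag
Acrv1 (chr9:36692970-36693219, plus strand): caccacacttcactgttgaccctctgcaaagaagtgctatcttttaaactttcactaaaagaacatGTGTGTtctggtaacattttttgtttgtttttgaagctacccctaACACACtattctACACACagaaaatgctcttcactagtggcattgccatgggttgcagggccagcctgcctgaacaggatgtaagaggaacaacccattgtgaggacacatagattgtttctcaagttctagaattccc

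The full CRE, the letters bound by CREM, an activator of genes in spermatids, and its relatives, occurred in 1 of the 9 stretches, that of Izumo1, and in 1.62% of 27025 stretches of the same length. The core, which the full element contains on both strands, occurred in 4 of the 9, those of Spaca1 (at 69 to 65 and at 59 to 55 bases before the start), Spaca3, Zpbp2 and Izumo1, against 17.9% of all. The MYB core AACNG was found in 5 of the 9 and in 74.1% of all, and the SOX core ACAAT in Acrv1 and Spam1 and in 28.3% of all. The RFX letters GTTGCC (10.5% of all) and the TATA letters TATAAA (13.0% of all) were found in none of the 9. The repeat ACACAC lay in the stretch of Acrv1 and in 14.7% of all. These matches describe letters in the windows searched, not binding.

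At day 15 the genes fell into a set that varied and a set that did not, with Spaca1 between them. Acr, Zpbp, Zpbp2 and Spata16 each spanned between 2.07 and 3.84 log2 units over the 18 arrays and were highest in unexposed wild type testis, and Spaca1 spanned 0.95. Spaca3, Spaca4 and Izumo1 spanned between 0.59 and 0.84. Acrv1 lay between 3.95 and 4.77 and Spam1 between 3.13 and 3.87 in all 18 arrays, below the filter level of 5.561.

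**Figure D1:**
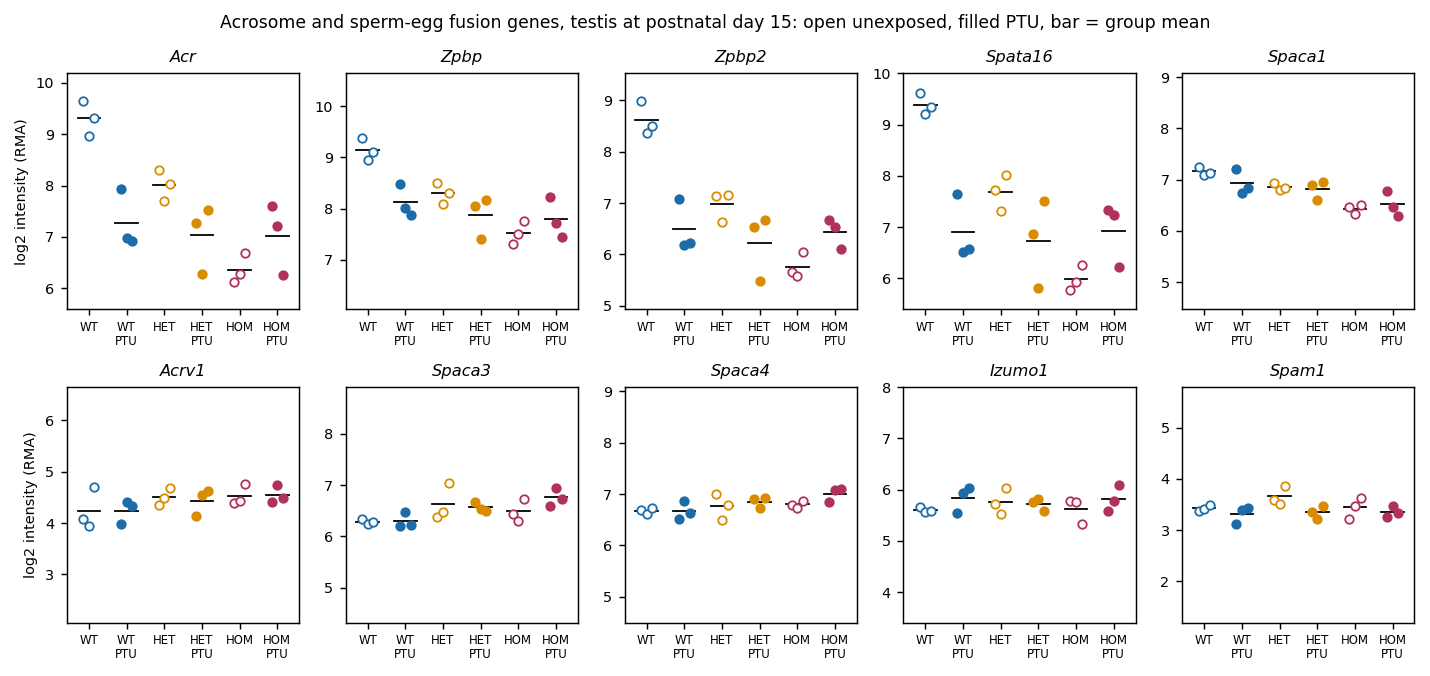
Log2 intensity of each gene in each array at postnatal day 15, 1 panel per gene, with the 6 groups along the horizontal axis; open points are unexposed, filled points PTU-exposed, and bars are group means of 3 arrays. Acr, Zpbp, Zpbp2 and Spata16 are highest in the 3 unexposed wild type arrays, while Spaca3, Spaca4, Izumo1, Acrv1 and Spam1 stay within 0.84 over all arrays.

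Acr encodes acrosin, the trypsin-like protease of the acrosome. Its level was 9.65, 8.96 and 9.32 in unexposed and 7.93, 6.98 and 6.92 in PTU-exposed wild type testis. In heterozygous testis it was 8.30, 7.70 and 8.03 unexposed and 7.28, 6.28 and 7.53 exposed, and in homozygous testis 6.13, 6.27 and 6.68 unexposed and 7.60, 7.22 and 6.25 exposed. All 3 unexposed wild type arrays lay above every other array, and the 3 unexposed homozygous arrays were near the bottom of the range. With PTU, Acr fell in wild type testis (log2 difference -2.03 ± 0.35, with limma's standard error, 4.09-fold, adjusted p = 0.00101). Without PTU the homozygous level was below the wild type one (-2.95 ± 0.35, 7.72-fold, adjusted p = 1.45e-05) and lower in heterozygous testis (-1.30 ± 0.35, adjusted p = 0.0479).

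Zpbp and Zpbp2 encode related zona pellucida binding proteins of the acrosome matrix that shape the acrosome. The level of Zpbp was 9.37, 8.94 and 9.10 in unexposed and 8.49, 8.01 and 7.88 in exposed wild type testis. It was 8.51, 8.10 and 8.31 in unexposed heterozygous and 7.31, 7.50 and 7.76 in unexposed homozygous testis. Each of these 3 groups lay wholly below unexposed wild type. Zpbp fell with PTU in wild type (-1.01 ± 0.22, adjusted p = 0.00521) and was lower in unexposed homozygous (-1.61 ± 0.22, adjusted p = 4.18e-05) and heterozygous testis (-0.83 ± 0.22, adjusted p = 0.0428).

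Zpbp2, on its own probe set, had levels of 8.98, 8.36 and 8.50 in unexposed and 7.08, 6.18 and 6.23 in exposed wild type testis. In unexposed heterozygous testis it was 7.13, 6.63 and 7.16, and in unexposed homozygous testis 5.66, 5.57 and 6.04. The groups again followed each other without overlap from wild type through heterozygous to homozygous. The differences were -2.12 ± 0.29 for PTU in wild type (4.35-fold, adjusted p = 0.000138), -2.86 ± 0.29 for homozygous against wild type (7.26-fold, adjusted p = 3.88e-06) and -1.64 ± 0.29 for heterozygous against wild type (adjusted p = 0.00326).

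Spata16, a Golgi protein of spermatids that moves to the acrosome and is needed to build it, spanned the widest range of the 10 genes at this age. It was 9.62, 9.20 and 9.35 in unexposed and 7.65, 6.51 and 6.57 in exposed wild type testis. It was 7.73, 7.32 and 8.01 in unexposed heterozygous and 5.78, 5.93 and 6.26 in unexposed homozygous testis. With PTU in homozygous testis the values were 7.33, 7.23 and 6.22, so that 2 of 3 exposed arrays lay above all unexposed ones and 1 lay among them. Spata16 fell with PTU in wild type (-2.48 ± 0.37, 5.58-fold, adjusted p = 0.000322), and was lower in homozygous (-3.40 ± 0.37, 10.5-fold, adjusted p = 7.36e-06) and heterozygous testis (-1.70 ± 0.37, adjusted p = 0.0162) without PTU.

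Spaca1 encodes a membrane protein of the acrosome that is needed for its expansion. At day 15 its level was 7.25, 7.09 and 7.14 in unexposed wild type and 6.46, 6.34 and 6.5 in unexposed homozygous testis. The groups did not overlap, and homozygous testis had less Spaca1 (-0.73 ± 0.13, adjusted p = 0.000572). Its PTU difference in wild type was -0.23 ± 0.13 (95% interval -0.51 to 0.05) and did not pass the test (adjusted p = 0.266).

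Izumo1, Spaca3 and Spaca4 passed no test at day 15. Izumo1 is the sperm protein that binds the egg receptor Juno before fusion, and its level lay between 5.33 and 6.09 in all 18 arrays. That is around the day 15 filter level of 5.561, also in unexposed wild type testis (5.57 to 5.66), so a fall of Izumo1 could hardly have been seen. Spaca3, a lysozyme-like acrosome protein, lay between 6.2 and 7.04, and Spaca4, a GPI-anchored acrosome membrane protein, between 6.5 and 7.09. For PTU in wild type their 95% intervals were -0.11 to 0.57 (Izumo1), -0.30 to 0.33 (Spaca3) and -0.26 to 0.25 (Spaca4).

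Counted over the genes tested at day 15, PTU in wild type lowered 4 of the 8 and raised 0, where 8.75% of all genes tested were lower. The median difference was -0.62 over the 8 and 0.03 over all genes. Homozygous minus wild type without PTU was lower for 5 of the 8 (14.2% of all genes; medians -1.17 and 0.08), and heterozygous minus wild type for 4 of the 8 (3.23% of all genes; medians -0.57 and 0.03). These 3 comparisons share the 3 unexposed wild type arrays. The heterozygous count ranged from 1 to 4 when single arrays were left out: 1 without unexposed wild type array 1 or 3 or unexposed heterozygous array 2, and 2 without unexposed wild type array 2 or unexposed heterozygous array 3. It was 2 with array set (the arrays fall into a set of 12 and a set of 6 by a group of unnamed bright probe sets) as a block. The larger set holds all 6 wild type arrays but only 1 unexposed heterozygous array, and the smaller one only heterozygous and homozygous arrays. With that 1 array, a fit within the larger set cannot tell whether array set bears on the heterozygous calls. A further fit left out the 3 arrays in which the epididymis gene Spink8 lies above 7. The 3 arrays high in Spink8 are unexposed wild type arrays 2 (9.38) and 3 (7.91) and exposed homozygous array 2 (8.74). Without them 1 unexposed wild type array is left, and Spata16 was at -2.71 for PTU in wild type and -3.63 for unexposed homozygous minus wild type. Same-numbered arrays deviated together in unexposed heterozygous minus wild type. With the replicate number as a block its 4 calls stood, while the calls over all genes went from 660 to 1303.

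In heterozygous testis PTU changed 0 of the 8 (0.569% of all genes called), with Acr at -0.98 ± 0.35 (adjusted p = 0.226) and Spata16 at -0.95 ± 0.37 (adjusted p = 0.268). The unexposed and exposed heterozygous arrays of Acr did not overlap, while those of Spata16 did. In homozygous testis PTU also changed 0 of the 8 (4.96% of all genes called). There Spata16 was at 0.94 ± 0.37 (adjusted p = 0.15) and Zpbp2 at 0.68 ± 0.29 (adjusted p = 0.175), with exposed Zpbp2 at 6.67, 6.53 and 6.11, all above the unexposed arrays.

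The difference between the PTU effects of homozygous and wild type testis was itself past the threshold for 4 of the 8 genes (8.23% of all genes were past it in that direction): Spata16 3.42 ± 0.53 (adjusted p = 0.000668), Zpbp2 2.80 ± 0.41 (adjusted p = 0.000462), Acr 2.70 ± 0.50 (adjusted p = 0.00207) and Zpbp 1.28 ± 0.31 (adjusted p = 0.0104). This interaction also rests on the unexposed wild type arrays, which were the highest for all 4 genes. In unexposed homozygous testis Zpbp2 lay at 5.57 to 6.04 and Spata16 at 5.78 to 6.26, close to the day 15 filter level of 5.561. For Zpbp2 and Spata16 a fall with PTU, or a larger genotype difference without PTU, could hardly have been seen there. Acr (6.13 to 6.68) and Zpbp (7.31 to 7.76) lay higher in that group. The interaction of PTU with the heterozygous genotype passed for 0 of the 8 (0.449% of all genes called), the nearest being Zpbp2 at 1.38 ± 0.41 (adjusted p = 0.229).

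Among exposed mice at day 15 genotype changed 0 of the 8. Homozygous minus wild type called 0% of all genes by limma with Benjamini-Hochberg adjustment, with 4266 genes at an unadjusted p under 0.05, and the values of the 8 ran from -0.41 (Spaca1, adjusted p = 0.102) to 0.46 (Spaca3, adjusted p = 0.105). Same-numbered arrays deviated together in this comparison, and with the replicate number as a block Spaca1 passed (-0.41, adjusted p = 0.0437), among 750 genes called. Leaving out exposed homozygous array 1 gave 3 calls among the 8, with the calls over all genes in that fit not given here. Heterozygous minus wild type likewise called 0% of all genes, with 887 at an unadjusted p under 0.05, and the values of the 8 ran from -0.27 to 0.27.

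Some markers of germ cell stages and of other cells also differed between groups at day 15, not all in the same direction. The mean level of 7 pachytene spermatocyte genes was 9.99 to 10.43 in unexposed wild type, 8.84 to 9.36 in unexposed heterozygous and 7.30 to 8.22 in unexposed homozygous testis. It was 8.33 to 9.22, 7.86 to 9.07 and 8.0 to 9.08 in the exposed wild type, heterozygous and homozygous groups. Of these 7 genes 6 fell with PTU in wild type and all 7 were lower in unexposed homozygous testis. The mean of 6 spermatid genes lay between 5.48 and 5.84 in all 18 arrays, and none of the 5 tested passed in either comparison. The mean of 5 Sertoli cell genes went the other way, from 9.74 to 9.87 in unexposed wild type to 10.04 to 10.24 in exposed wild type (3 of 5 rose) and 10.34 to 10.55 in unexposed homozygous testis (4 of 5 higher). The mean of 4 macrophage genes was 7.90 to 8.21 in unexposed and 7.42 to 7.72 in exposed wild type testis (3 of 4 fell), and 7.75 to 7.86 in unexposed homozygous testis (1 of 4 lower). Of 3 general germ cell genes 1 fell with PTU in wild type and 3 were lower in unexposed homozygous testis. Among 5 Leydig cell genes 0 passed in either comparison. Over all genes 8.75% fell and 6.53% rose with PTU in wild type, and 14.2% were lower and 14.6% higher in unexposed homozygous testis. In RNA of whole testis, fewer cells of a type and less RNA per cell cannot be told apart, and the part of cell stage in the results was not tested.

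Other genes of the acrosome and of gamete fusion were taken from a list of 43, of which 41 were on each array type and 31 were tested at day 15. With PTU in wild type 12 of the 31 fell and 1 rose, with a median of -0.27, where 8.75% of all genes fell and 6.53% rose. The 4 with the smallest p were Adam3, a surface protein needed for sperm passage into the oviduct (-3.62 ± 0.41), Adam1b, its relative (-1.44 ± 0.18), Acrbp, which binds proacrosin (-1.28 ± 0.17), and the protease gene Prss21 (-1.03 ± 0.16). The 1 that rose was Spaca6 (0.78 ± 0.15), a sperm protein needed for fusion, named after its value was seen. Homozygous minus wild type without PTU was lower for 18 of the 31 and higher for 1 (all genes 14.2% and 14.6%), led by Adam3 (-4.38 ± 0.41), Adam1b (-1.77 ± 0.18), Acrbp (-1.45 ± 0.17) and Lypd4 (-2.63 ± 0.33). Heterozygous minus wild type was lower for 6 of the 31 (3.23% of all genes). The interaction of PTU and homozygous genotype was positive for 15 and negative for 1 (all genes 8.23% and 8.13%), and that with the heterozygous genotype was positive for 2 (0.443% of all genes), Prss21 (1.13 ± 0.23) and Adam3 (2.73 ± 0.58). In the other 4 comparisons 0 of the 31 passed.

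At day 25 all 10 genes were far above their array type's filter level of 4.759 in every group but the exposed homozygous one. In that group Spam1 (4.69 and 4.28) and the lower array of Acrv1 (4.23) were below it, and the other values were above it. On their brightest probe sets all 10 were lower there than in each other group. With PTU in homozygous testis 32.8% of all genes were lower. The size of the difference varied by gene: against unexposed homozygous testis it ran from -5.83 to -4.47 for Acrv1, Spam1, Spaca3 and Izumo1 and from -2.48 to -1.68 for Acr, Zpbp, Zpbp2 and Spata16.

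**Figure D2:**
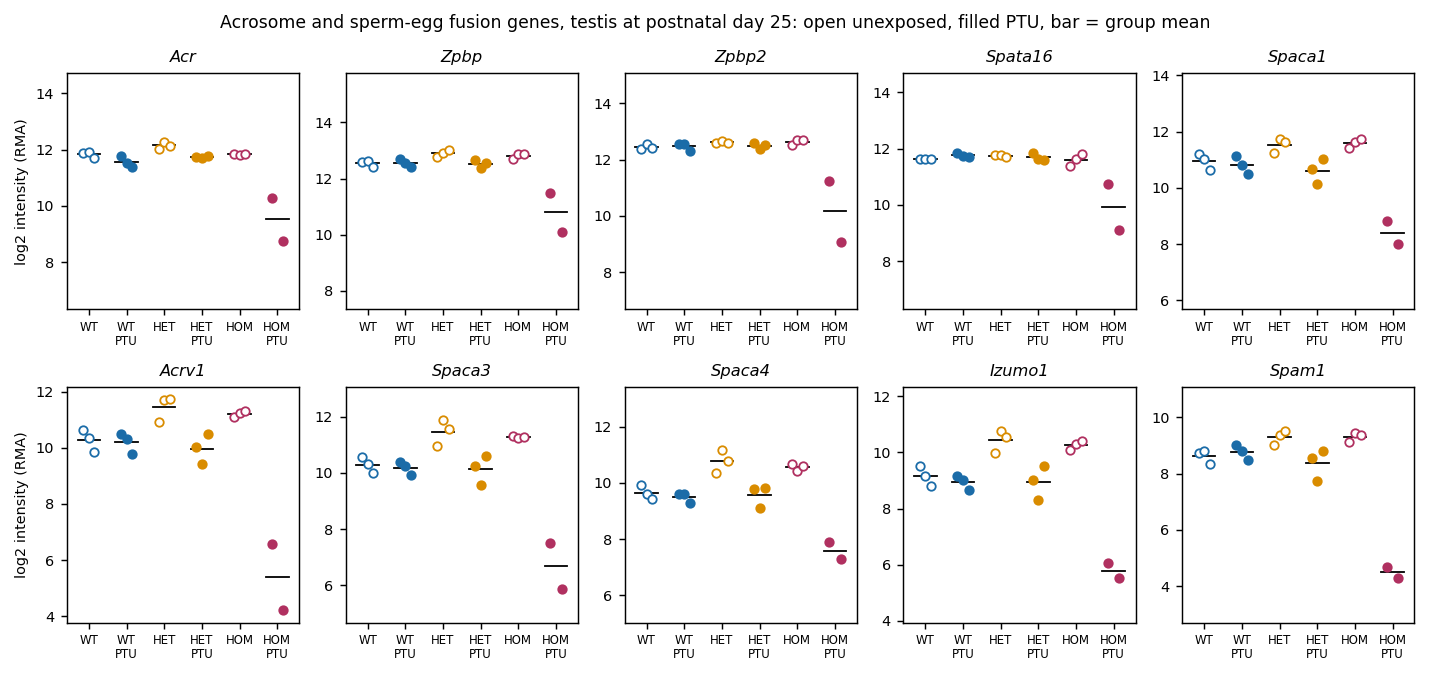
Log2 intensity of each gene in each array at postnatal day 25, 1 panel per gene, with the 6 groups along the horizontal axis; open points are unexposed, filled points PTU-exposed, and bars are group means of 3 arrays (2 in the exposed homozygous group). The 2 exposed homozygous arrays are the lowest in every panel, and the second is below the first, for example 4.23 against 6.56 for Acrv1.

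Acr at day 25 was 11.89, 11.90 and 11.72 in unexposed and 11.77, 11.54 and 11.37 in exposed wild type testis. It was 11.83, 11.82 and 11.84 in unexposed and 10.29 and 8.75 in exposed homozygous testis. The exposed homozygous arrays lay more than 1 log2 unit below all others, and Acr fell there with PTU (-2.31 ± 0.28, 4.96-fold, adjusted p = 4.32e-06).

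Zpbp was 12.68, 12.86 and 12.89 in unexposed and 11.49 and 10.10 in exposed homozygous testis (-2.02 ± 0.26, adjusted p = 7.15e-06). Zpbp2 was 12.52, 12.69 and 12.69 against 11.25 and 9.06 (-2.48 ± 0.38, adjusted p = 3.73e-05), and Spata16 was 11.37, 11.64 and 11.82 against 10.75 and 9.11 (-1.68 ± 0.30, adjusted p = 0.000136). These 3 genes and Acr varied little elsewhere: over the other 15 arrays Zpbp2 spanned 0.39, Spata16 0.49, Zpbp 0.63 and Acr 0.92. Their size depended on which exposed homozygous array was used: without array 2 (numbered as in the labels) the PTU differences were -1.54 (Acr), -1.32 (Zpbp), -1.38 (Zpbp2) and -0.86 (Spata16), and without array 1 they were -3.08, -2.71, -3.58 and -2.50, all past the threshold, with the single array left assumed to vary like the other groups.

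Acrv1, an acrosome vesicle protein of spermatids, was not above the filter level at day 15 and showed the widest range at day 25. It was 10.65, 10.35 and 9.86 in unexposed and 10.48, 10.32 and 9.77 in exposed wild type testis. In heterozygous testis it was 10.90, 11.69 and 11.73 unexposed and 10.03, 9.41 and 10.48 exposed, and in homozygous testis 11.11, 11.25 and 11.30 unexposed and 6.56 and 4.23 exposed. The wild type groups overlapped, the heterozygous groups did not, and the exposed homozygous arrays lay more than 2 log2 units below all others. The PTU differences were -0.10 ± 0.45 in wild type (adjusted p = 0.996), -1.46 ± 0.45 in heterozygous (2.76-fold, adjusted p = 0.0344) and -5.83 ± 0.50 in homozygous testis (56.8-fold, adjusted p = 2.92e-07). The lower of the exposed homozygous arrays is below the filter level, and the homozygous difference was -4.66 without array 2 and -6.99 without array 1.

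Izumo1 followed the same order of groups. It was 9.52, 9.17 and 8.80 in unexposed and 9.17, 9.02 and 8.66 in exposed wild type testis, 9.97, 10.76 and 10.56 in unexposed and 9.02, 8.32 and 9.50 in exposed heterozygous testis. In homozygous testis it was 10.08, 10.30 and 10.42 unexposed and 6.06 and 5.53 exposed. The unexposed heterozygous and homozygous arrays all lay above the unexposed wild type ones, and the exposed heterozygous arrays lay within the wild type range or below it. Izumo1 fell with PTU in heterozygous (-1.48 ± 0.28, adjusted p = 0.00447) and homozygous testis (-4.47 ± 0.31, 22.2-fold, adjusted p = 1.09e-07) and was higher in unexposed heterozygous (1.27 ± 0.28, adjusted p = 0.00666) and homozygous testis (1.11 ± 0.28, adjusted p = 0.0236) than in wild type.

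Spam1, a hyaluronidase on the sperm surface that helps sperm through the cells around the egg, was 8.73, 8.79 and 8.33 in unexposed wild type testis. It was 9.02, 9.36 and 9.52 in unexposed and 8.55, 7.73 and 8.82 in exposed heterozygous testis, and 9.12, 9.45 and 9.37 in unexposed and 4.69 and 4.28 in exposed homozygous testis. The exposed homozygous arrays were below the filter level, and no heterozygous array of one exposure overlapped the other. The PTU differences were -0.93 ± 0.24 (adjusted p = 0.0153) in heterozygous and -4.83 ± 0.27 (adjusted p = 2.05e-08) in homozygous testis. Since both exposed homozygous values lie below the filter level, the homozygous difference is a bound: Spam1 was at least 23.5-fold lower, taken against that level.

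Spaca3 was 10.97, 11.88 and 11.55 in unexposed and 10.25, 9.56 and 10.62 in exposed heterozygous testis, and 11.32, 11.24 and 11.29 in unexposed and 7.51 and 5.87 in exposed homozygous testis. Its differences with PTU were -1.32 ± 0.35 (adjusted p = 0.0181) and -4.60 ± 0.39 (24.2-fold, adjusted p = 2.69e-07), and the latter was -3.78 without exposed array 2 and -5.41 without array 1. Spaca4 had the smaller homozygous difference of the pair, -2.98 ± 0.25 (7.88-fold, adjusted p = 2.72e-07), with exposed arrays at 7.90 and 7.28 against 10.68, 10.43 and 10.60, and it fell in heterozygous testis (-1.22 ± 0.23, adjusted p = 0.00442). Spaca1 fell in heterozygous (-0.93 ± 0.25, adjusted p = 0.0201) and homozygous testis (-3.19 ± 0.28, 9.10-fold, adjusted p = 3.35e-07), where the exposed arrays were 8.81 and 8.01 and the unexposed ones 11.41, 11.65 and 11.73. In these 3 genes no heterozygous or homozygous array of one exposure overlapped the other.

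**Figure D3:**
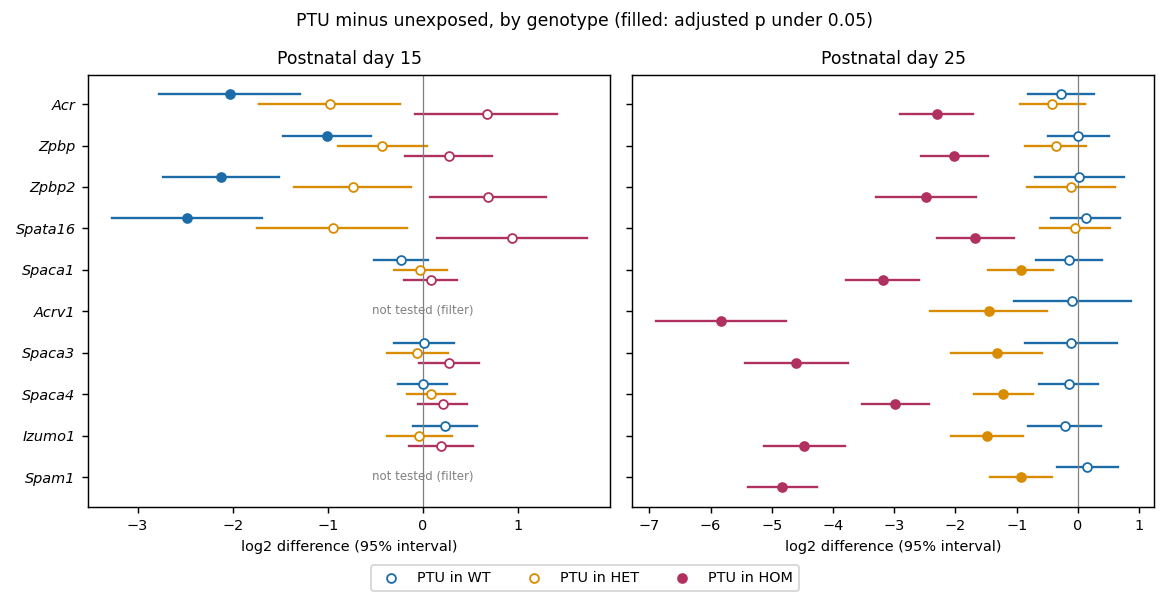
Log2 difference of PTU-exposed minus unexposed testis with its 95% interval, for each gene (vertical axis) in wild type, heterozygous and homozygous mice, at day 15 (left) and day 25 (right); filled points passed an adjusted p of 0.05. At day 15 the passing points are those of Acr, Zpbp, Zpbp2 and Spata16 in wild type; at day 25 all 10 homozygous and 6 heterozygous differences passed, and no wild type one.

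Over the 10 genes at day 25, PTU in wild type changed none: 0% of all genes were called by limma with Benjamini-Hochberg adjustment, 978 had an unadjusted p under 0.05, and the values of the 10 ran from -0.28 (Acr) to 0.15 (Spam1). PTU in heterozygous testis lowered 6 of the 10 (7.20% of all genes were lower), namely Acrv1, Spaca1, Spaca3, Spaca4, Izumo1 and Spam1. Acr, Zpbp, Zpbp2 and Spata16 lay between -0.42 and -0.05 and did not pass. The median was -0.93 over the 10 and 0.06 over all genes. Leaving out unexposed heterozygous array 2 or 3 or exposed heterozygous array 2 reduced the 6 calls to 2. Exposed heterozygous array 2 was the lowest of its group for all 6 genes, and its level of the epididymis gene Spink8 was 10.07, against 5.86 to 6.34 in the other 5 heterozygous arrays. PTU in homozygous testis lowered 10 of the 10, where 32.8% of all genes were lower (medians -3.08 and 0.02).

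The PTU effect differed between homozygous and wild type testis for all 10 genes, each on its brightest probe set (26.3% of all genes were past the threshold in that direction). The difference ran from -5.73 ± 0.67 for Acrv1 (adjusted p = 2.37e-05) to -1.80 ± 0.40 for Spata16 (adjusted p = 0.00137). Between heterozygous and wild type testis the difference of the PTU effects passed for 0 of the 10 and for 0% of all genes by limma with Benjamini-Hochberg adjustment, although 2982 genes, 6 of the 10 among them, had an unadjusted p under 0.05. The smallest adjusted p of the 10 was 0.139 (Spaca4, -1.06 ± 0.32). A difference between the heterozygous and wild type responses is therefore not shown by this test. With array weights 4 of the 10 passed, and without unexposed heterozygous array 1 it was 2. Calls over all genes in these fits are not given here.

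Without PTU, genotype moved part of the set upward at day 25. Heterozygous minus wild type was higher for 3 of the 10 (8.32% of all genes were higher): Izumo1 1.27 ± 0.28, Spaca3 1.17 ± 0.35 (adjusted p = 0.0267) and Spaca4 1.13 ± 0.23 (adjusted p = 0.00464). The other 7 lay between 0.11 (Spata16) and 1.15 (Acrv1) and did not pass. Homozygous minus wild type was higher for 2 of the 10 (5.35% of all genes were higher), Izumo1 and Spaca4 (0.91 ± 0.23, adjusted p = 0.0227). The homozygous count was 0 without unexposed wild type array 2 or 3 or unexposed homozygous array 3, and 1 without unexposed homozygous array 1, and the heterozygous count was 5 without unexposed heterozygous array 1. The 2 counts were 6 and 6 when only the groups compared were fitted, and 5 and 7 in a fit without the exposed homozygous group. Calls over all genes in these fits are not given here, so the larger counts do not show a change particular to the members.

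**Figure D4:**
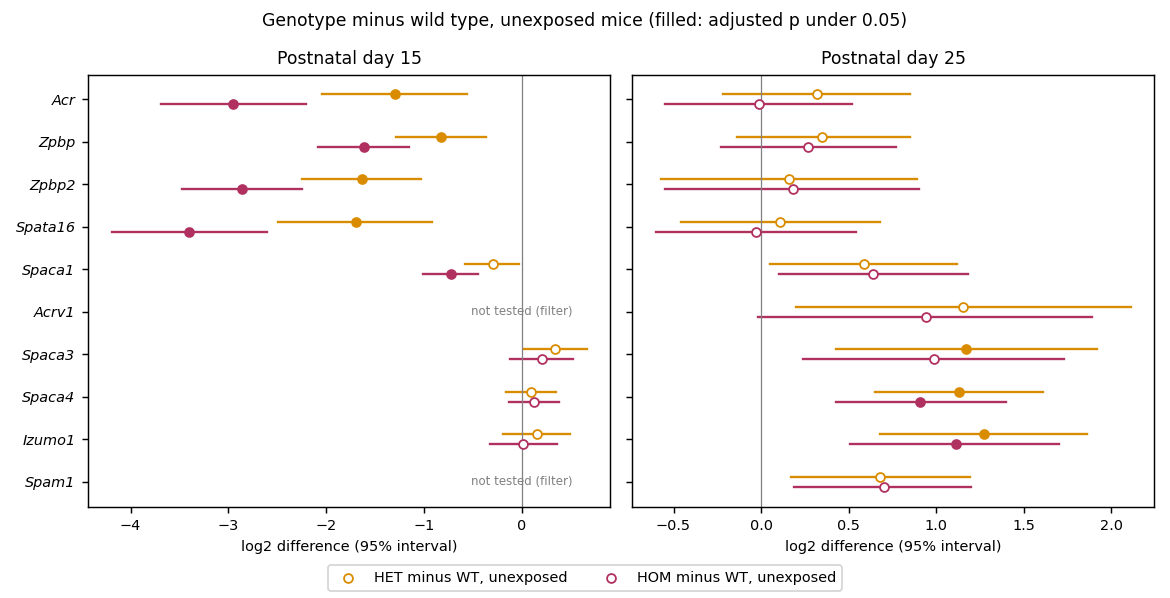
Log2 difference of heterozygous or homozygous minus wild type testis in unexposed mice with its 95% interval, for each gene (vertical axis), at day 15 (left) and day 25 (right, on another scale); filled points passed an adjusted p of 0.05. The passing differences lie below 0 at day 15, down to -3.40 for Spata16, and above 0 at day 25, up to 1.27 for Izumo1.

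Among exposed mice at day 25, homozygous minus wild type was lower for 10 of the 10 (28.4% of all genes were lower), from -4.80 ± 0.50 for Acrv1 to -1.75 ± 0.26 for Zpbp, and the median was -2.36 against 0 over all genes. The homozygous arrays had a larger difference between the 3′ and 5′ probe sets of Actb, a sign of RNA quality, than the others: 0.95 to 1.31 unexposed and 1.08 and 1.44 exposed, against 0.55 to 0.78 in the other 12 arrays. The same measure of Gapdh overlapped, at -0.11 to 0.29 in homozygous and -0.23 to 0.09 in the other arrays. The Actb difference nearly coincides with the homozygous genotype, so a fit can hardly tell the 2 apart. With it as a covariate, 2 of the 10 genes passed in this comparison, Izumo1 (-2.97, adjusted p = 0.0267) and Spam1 (-4.24, adjusted p = 0.00179). The other 8 kept their sign, with Acrv1 at -3.28, Spaca3 at -2.34, Spaca1 at -2.00, Spaca4 at -1.43, Spata16 at -1.03, Zpbp at -0.97, Zpbp2 at -0.91 and Acr at -0.90, and adjusted p from 0.0572 to 0.378. With the covariate 0 passed for homozygous minus wild type in unexposed mice. For PTU in homozygous testis, where both groups have such values, all 10 passed with it, from -5.44 for Acrv1 to -1.47 for Spata16. Without the covariate 32.8% of all genes were lower in that comparison, and the shares of all genes called with it are not given here. The covariate is fitted on differences within groups, such as 1.08 against 1.44 in the 2 exposed homozygous arrays, so the values with it depend in part on such gaps. Heterozygous minus wild type in exposed mice changed 0 of the 10 (0.092% of all genes called), with values from -0.41 (Spam1) to 0.18 (Acr).

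Markers of germ cell stages and of other cells also differed between groups at day 25, not all in the same direction. The mean of 6 spermatid genes was 8.23 to 10.56 in unexposed wild type, 11.16 to 12.77 in unexposed heterozygous and 11.09 to 11.96 in unexposed homozygous testis, and 7.68 to 8.98, 7.43 to 9.48 and 5.68 to 5.76 in the exposed groups in the same order. All 6 passed in the direction of the members in each of PTU in heterozygous, PTU in homozygous, and unexposed heterozygous or homozygous minus wild type. The mean of 7 pachytene genes was 10.89 and 12.10 in the exposed homozygous arrays and 12.69 to 12.97 in all others. The mean of 5 Leydig cell genes was 8.08 and 8.14 there and 9.26 to 10.51 elsewhere. That of 3 general germ cell genes was 13.07 and 13.18 there and 12.77 to 13.14 elsewhere. With PTU in homozygous testis 6 of the 7 pachytene genes fell and 1 rose, and of the 5 Leydig cell genes 2 fell and 1 rose. Of the 3 germ cell genes 1 fell and 1 rose, 4 of 5 Sertoli cell genes rose and 2 of 4 macrophage genes fell. In that comparison 32.8% of all genes fell and 38.4% rose. The mean of the 5 epididymis genes on this array type was 7.35 and 7.56 in the exposed homozygous arrays and 4.83 to 6.23 elsewhere. Of the 4 tested, 3 rose with PTU in homozygous testis: Spink8 to a mean of 12.83, Adam7 to 8.44 and Lcn5 to 6.51. Spink12 stayed at 4.43 to 4.59 there and Lcn8, at 4.96 to 4.99, near the level of the other groups. Of the 3 fat genes tested, 2 rose there, in a comparison where 38.4% of all genes rose, but fat transcript was not limited to that group: the mean of 4 genes was 6.64 and 7.48 in exposed homozygous, 5.88 to 9.02 in exposed wild type, 4.96 to 6.70 in exposed heterozygous and 4.76 to 6.67 in unexposed arrays. The part of cell makeup and of tissue around the testis in the members' differences was not tested. For RNA quality only the fit with the Actb covariate was run, which can hardly tell it from the homozygous genotype.

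**Figure D5:**
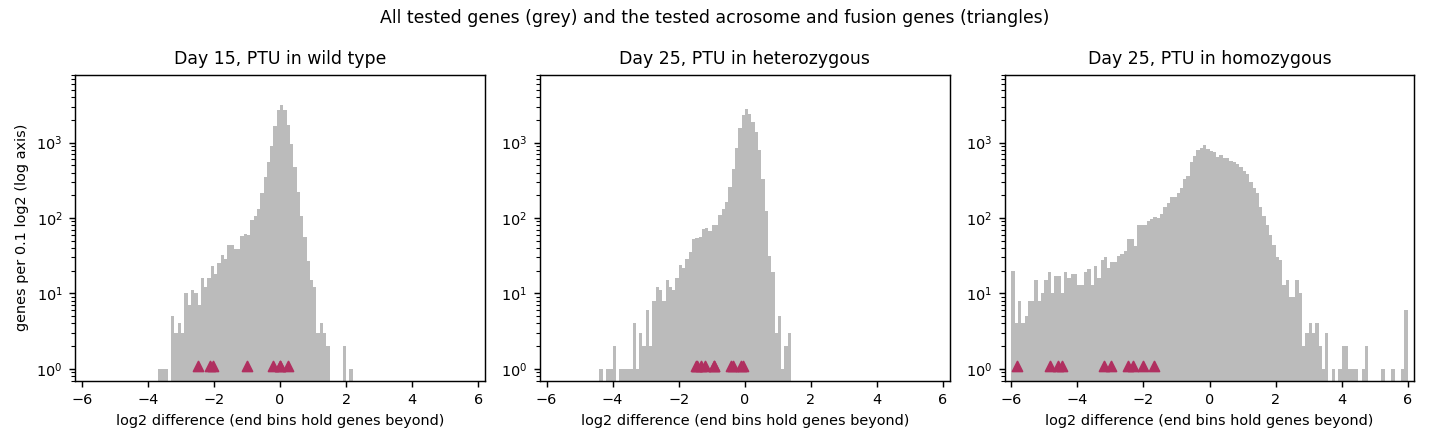
Number of genes per 0.1 log2 (logarithmic vertical axis) by their log2 difference with PTU, for wild type at day 15, heterozygous at day 25 and homozygous at day 25; triangles mark the 8, 10 and 10 acrosome and fusion genes tested, and the end bins hold genes beyond 6. The distribution of all genes is wider in homozygous testis at day 25, where the 10 genes lie between -5.83 and -1.68.

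A second probe set of 4 genes at day 25 gave other values. The second probe set of Spata16, with group means from 7.96 to 8.42, did not differ with PTU in homozygous testis (0.17 ± 0.16, adjusted p = 0.375 over 29599 probe sets; 8.16 in both exposed arrays), unlike the brighter one. That of Zpbp2, with group means of 4.06 to 5.08, gave -0.31 ± 0.22 (adjusted p = 0.215), whereas those of Spaca3 (-1.02 ± 0.22, adjusted p = 0.000696) and Zpbp (-0.70 ± 0.18, adjusted p = 0.00298) were lower with PTU as well. The second Spaca3 probe set did not pass for PTU in heterozygous testis (-0.05 ± 0.19, adjusted p = 0.908). Nor did it for unexposed heterozygous minus wild type (0.33 ± 0.19, adjusted p = 0.262), so both heterozygous calls of Spaca3 rest on the brighter one. For unexposed homozygous minus wild type the second Zpbp2 probe set was lower (-0.70 ± 0.19, adjusted p = 0.0299), and the brighter one was at 0.18 ± 0.34. For the interaction of PTU and homozygous genotype the second probe sets of Spata16 (-0.16 ± 0.22, adjusted p = 0.554) and Zpbp2 (0.02 ± 0.29, adjusted p = 0.956) did not pass. Those of Spaca3 (-1.07 ± 0.29, adjusted p = 0.00638) and Zpbp (-0.75 ± 0.24, adjusted p = 0.0169) did. In exposed homozygous minus wild type that of Spata16 did not pass (-0.26 ± 0.16, adjusted p = 0.191), while those of the other genes were lower. Which transcripts each probe set detects is not given in the files.

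Of the 41 other acrosome and fusion genes tested at day 25, 36 fell and 4 rose with PTU in homozygous testis (median -1.99), where 32.8% of all genes fell and 38.4% rose (median 0.02). The 4 with the smallest p were the hyaluronidase gene Hyal5 (-5.27 ± 0.35), the testis chaperone Pdilt (-4.94 ± 0.34), Izumo2, a relative of Izumo1 (-4.12 ± 0.31), and Eqtn, an acrosome membrane protein (-4.59 ± 0.36). The 4 that rose, named after their values were seen, were Vps54 (0.92 ± 0.12), Tex101 (0.58 ± 0.10), Ly6k (0.41 ± 0.10) and Tmf1 (0.36 ± 0.13); Tex101 and Ly6k encode GPI-anchored proteins of germ cells, and Vps54 and Tmf1 act in Golgi traffic. PTU in heterozygous testis lowered 19 and raised 3 (median -0.42; all genes 7.20% and 11.5%), led by the complement regulator Cd46 (-1.76 ± 0.30), Prss37 (-3.16 ± 0.56), Calr3 (-3.14 ± 0.58), a chaperone for sperm surface proteins, and Izumo2 (-1.51 ± 0.28). PTU in wild type changed 0 of the 41.

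Without PTU, 13 of the 41 were higher and 3 lower in heterozygous than in wild type testis (all genes 8.32% and 14.3%), led by Cd46 (1.72 ± 0.30), Tmem81 (0.87 ± 0.15), Tex101 (-0.50 ± 0.09) and Prss37 (2.96 ± 0.56). In homozygous testis 9 were higher and 2 lower (all genes 5.35% and 7.32%), led by Tmem81 (0.81 ± 0.15), Calr3 (2.59 ± 0.58), Prss37 (2.43 ± 0.56) and Cd46 (1.29 ± 0.30). Among exposed mice 32 were lower and 2 higher in homozygous than in wild type testis (all genes 28.4% and 32.7%), with Hyal5 (-3.99 ± 0.35), Pdilt (-3.83 ± 0.34), Spaca7 (-4.55 ± 0.43) and Eqtn (-3.62 ± 0.36) in front, and 0 differed between heterozygous and wild type. The interaction of PTU and homozygous genotype was negative for 32 and positive for 2 (all genes 26.3% and 33.1%), and that with the heterozygous genotype passed for 0.

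The genes varied together to different degrees. Across the 18 arrays of day 15, the Pearson correlation of each gene with the mean of the other tested members was 0.963 to 0.985 for Acr, Zpbp, Zpbp2 and Spata16, 0.814 for Spaca1, and -0.300 to -0.261 for Spaca3, Spaca4 and Izumo1. Across the 17 arrays of day 25 it was 0.891 to 0.999. Over the 15 arrays left without the exposed homozygous group it was 0.923 to 0.989 for Acrv1, Spaca1, Spaca3, Spaca4, Zpbp, Izumo1 and Spam1, 0.750 for Acr, 0.727 for Zpbp2 and 0.039 for Spata16. The arrays of a group share genotype and exposure, so these values describe the group differences above.

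By the same measure, the 5 genes outside the set most like the mean of its tested members were Cfap43 (0.993), Slc2a5, Adam32 and Kif9 (0.991 each) and Pabpc2 (0.990) over the 18 arrays of day 15. At day 25 they were Ddi1, Zp3r, Nt5c1b and Lyzl6 (0.998 each) and Chl1 (0.997) over 17 arrays, and their values over the 15 arrays without the exposed homozygous group were 0.981 to 0.990.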

How the data were processed

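Testis RNA was hybridised to Affymetrix arrays, and the authors deposited log2 intensities, made with RMA per the submitters' processing notes (version not given in the sources used here), with no further normalization here. The brightest probe set with 1 gene symbol stood for a gene. Tested genes had to exceed, in at least 2 arrays of an age, the level at percentile 25 of that age's values. A linear model of the 6 groups was fitted per age with limma 3.58.1 in R 4.3.3 (lmFit, contrasts.fit, eBayes), adjusting by Benjamini-Hochberg over all genes of a contrast, with a threshold of 0.05. Errors are moderated standard errors. The scripts were tested on simulated data. With 2 or 3 arrays per group, the number of arrays limits precision.

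All 10 members were named at both ages; other acrosome and fusion genes were named by the 4 smallest p per contrast, and like genes by the 5 highest correlations. Members and lists were chosen with earlier results of these data known. The labels give no meaning to sample numbers. Numbers were taken to pair arrays where all 3 same-number correlations of deviations exceeded 0.1: at day 15 for PTU in heterozygous (0.391 to 0.444), exposed homozygous minus wild type (0.141 to 0.557) and unexposed heterozygous minus wild type (0.181 to 0.374), and at day 25 for PTU in wild type (0.233 to 0.396). Alternatives were other filters, every probe set, quantile normalization, the groups compared alone, array weights, the replicate block, array set, arrays high in Spink8 and each array left out. The Actb covariate and the fit without the exposed homozygous group were chosen after the values were seen.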

Additional observations from a re-analysis of the deposited data

Results flagged for a closer look

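The effect of PTU differed between homozygous and wild type testis by a test of the difference itself (limma interaction, exposed minus unexposed in homozygous minus the same in wild type), and each of the following values passed an adjusted p of 0.05. At day 15 the interaction was positive for Acr (2.70), Zpbp (1.28), Zpbp2 (2.80) and Spata16 (3.42), with 3 arrays in each of the 4 groups. At day 25 it was negative for Acr (-2.03), Acrv1 (-5.73), Spaca1 (-3.04), Spaca3 (-4.48), Spaca4 (-2.82), Zpbp (-2.02), Zpbp2 (-2.50), Izumo1 (-4.26), Spam1 (-4.98) and Spata16 (-1.80), with 2 exposed homozygous arrays. Acr, Zpbp, Zpbp2 and Spata16 had an interaction of opposite sign at the 2 ages. For Zpbp2 and Spata16 this rests on the brighter probe set of day 25. Their second probe sets gave 0.02 and -0.16, neither past the threshold. For Zpbp2 and Spata16 the unexposed homozygous values at day 15 lay close to the filter level, which leaves little room for a fall with PTU. Each age has its own array type, and the difference between the ages was not tested.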

How the results depend on the processing

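Of the 162 differences of the tested genes, 58 were past the threshold, and 39 of these kept their call under all alternatives run; no called value changed sign. The counts of 4 for PTU in wild type, 5 for unexposed homozygous minus wild type and 4 for the homozygous interaction at day 15, and the counts of 10 for PTU in homozygous, exposed homozygous minus wild type and the homozygous interaction at day 25, were the same when each array was left out. At day 15 the counts for PTU in heterozygous, PTU in homozygous and exposed heterozygous minus wild type also stayed at 0 when each array was left out. At day 25 those for PTU in wild type and exposed heterozygous minus wild type did so too. In the other comparisons the count of passing genes moved, and the cause was not tested. The counts below stand without the calls over all genes in the same fits, so a moved count need not be particular to the members. At day 15, array weights gave 1 for exposed homozygous minus wild type and 2 for the heterozygous interaction, and the replicate block gave 1 for the former and changed no other member's call where the numbers pair the arrays. For unexposed heterozygous minus wild type the count was 2 with a block for array set. The fits in the larger array set alone and without the arrays high in Spink8 each left 1 array in a group compared, so their counts are not given. At day 25, unexposed homozygous minus wild type gave 6 with the groups compared alone, 6 with array weights, 5 without the exposed homozygous group and 0 with the Actb covariate, and unexposed heterozygous minus wild type gave 6, 5 and 7 under the first 3. Array weights gave 4 for the heterozygous interaction, and the Actb covariate 2 for exposed homozygous minus wild type. Leaving out single arrays gave ranges of 1 to 4 for unexposed heterozygous minus wild type, 0 to 3 for exposed homozygous minus wild type and 0 to 1 for the heterozygous interaction (1 without exposed heterozygous array 2) at day 15. At day 25 the ranges were 2 to 5 for unexposed heterozygous minus wild type, 0 to 2 for unexposed homozygous minus wild type, 0 to 2 for the heterozygous interaction and 2 to 6 for PTU in heterozygous testis.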
